A study of Gallus gallus with 6 samples.

Results

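Cytosolic ribosomal proteins are the protein subunits of the ribosomes that translate nuclear-encoded mRNA. Their genes were taken as every symbol in the count table that starts with RPL or RPS followed by a number and an optional paralog letter, without the S6 kinases, plus RPSA, RPLP0, RPLP1 and RPLP2 where present. This gave 55 genes of the 6789 in the table, 19 of the small subunit and 36 of the large subunit by their symbols. A symbol alone does not show that a paralog is part of the finished ribosome. All 55 passed the filter on low counts.

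The samples were Hes5.3-positive cells sorted by flow cytometry from chick retinas of embryonic day 5. Retinas had been cultured for 8 h in DMEM with 10% fetal bovine serum and antibiotics, with either 2.5 µM retinoic acid (RA) or DMSO, the solvent, as the control. Each library pooled 2 retinas of different embryos, and each control library came from the fellow eyes of an RA library's embryos. The 3 RA and 3 control libraries therefore form pairs, numbered 1, 3 and 4. How Hes5.3 was detected for sorting, and the strain and sex of the embryos, are not given in the labels.

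The ribosome has a small subunit that binds mRNA and decodes it and a large subunit that joins amino acids and passes the growing chain through an exit tunnel. Most of its proteins are present in a single copy, the acidic stalk proteins in several, and some have paralogs. In vertebrates their mRNAs begin with a pyrimidine tract through which growth signals control their translation together. The genes are active in every cell type, and growing and dividing progenitor cells, such as those of the early retina, make many ribosomes. In a sorted bulk sample, fewer cells with much ribosomal protein mRNA and less of it per cell cannot be told apart.

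Total gene counts ranged from 19808063 to 27235633 per library. All 13 retinal progenitor markers found in the table passed the filter, and their summed level was 9786 to 12098 CPM (counts scaled to a common library size) in the control and 10732 to 14478 CPM with RA. The 11 ganglion neuron markers summed to 1436 to 1591 CPM in the control and 1457 to 1617 CPM with RA. The lens markers summed to 57.5 to 67.6 CPM in the control and 62.7 to 92.2 CPM with RA, with 6 of 14 passing the filter. The pigment epithelium markers (4 of 7 passing the filter, TTR at 0 in every library) summed to 40.5 to 46.3 CPM in the control and 46.6 to 51.3 CPM with RA. The mesenchyme markers (5 of 10 passing the filter, DCN at 0) summed to 26.9 to 37.8 CPM and 27.6 to 51.3 CPM. The blood and endothelium markers (2 of 11 passing the filter, HBE, HBE1, HBM and GATA1 at 0) summed to 2.40 to 5.84 CPM and 1.94 to 10.4 CPM. Within pairs, the progenitor, ganglion neuron, lens, pigment epithelium and mesenchyme sums were each higher with RA in 3 of 3 pairs, where the ribosomal share was lower. The log2 ratios in pairs 1, 3 and 4 were 0.08, 0.13 and 0.26 for the progenitor sum and 0.02, 0.44 and 0.63 for the mesenchyme sum. They were 0.10, 0.45 and 0.21 for the lens sum and 0.26, 0.20 and 0.01 for the pigment epithelium sum. Of all these markers, 2 passed the test for RA, both higher. FZD5, a Wnt receptor of progenitors, rose by 0.41 ± 0.06 and POSTN, a matrix protein of mesenchyme, by 1.19 ± 0.21 on the log2 scale (SE, edgeR quasi-likelihood adjusted p = 0.00290 and 0.00753). The mesenchyme markers did not move together. Of the 5 tested, 3 had a fitted change below 0, and the list median was -0.05. POSTN and PDGFRA were higher with RA in 3 of 3 pairs, while COL3A1 was lower in 3 of 3, at log2 ratios of -0.61, -0.12 and -0.25. The part of cell composition in the ribosomal values was not tested. CYP26A1, the RA-degrading enzyme and a direct RA target, rose in 3 of 3 pairs by 5.22 ± 0.10 on the log2 scale (SE, edgeR quasi-likelihood adjusted p = 2.14e-14).

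The share of all gene counts taken by the ribosomal protein genes was lower with RA in each of the 3 pairs, but the size of the difference was very uneven. It was 5.02% in the control and 4.10% in the RA library of pair 1. In pair 3 it was 4.81% and 4.74%, and in pair 4 it was 4.54% and 4.31%. The control and RA values overlapped between pairs, because the RA library of pair 3 lay above the control library of pair 4. The share was 4.79% ± 0.240 in the control and 4.38% ± 0.324 with RA (SD, n = 3 each). Pair 1 had a log2 ratio of RA to control of -0.29, pair 3 of -0.02 and pair 4 of -0.07, with a mean of -0.13 ± 0.14 (SD, n = 3 pairs). The spread between pairs was thus larger than the mean difference, and no test was run on this sum. Wilson 95% intervals of the shares were at most 0.0187 percentage points wide and cover counting error only, and the shares of any 2 libraries differed by more than that.

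**Figure D1:**
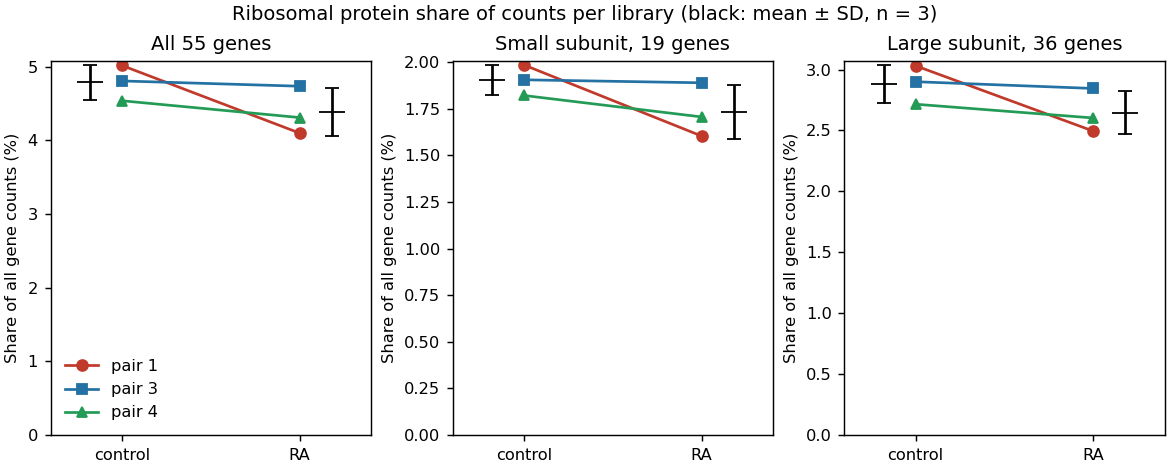
Share of all gene counts (%) taken by the 55 ribosomal protein genes, the 19 small subunit genes and the 36 large subunit genes in each library, with lines joining the control and RA library of a pair and black bars for the mean ± SD. The line of pair 1 runs from 5.02% to 4.10% over all genes, while those of pairs 3 and 4 are nearly flat.

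Both subunits moved alike in this measure. The small subunit genes took 1.90% ± 0.0820 of counts in the control and 1.73% ± 0.145 with RA (SD, n = 3 each), with log2 ratios of -0.31 in pair 1, -0.01 in pair 3 and -0.09 in pair 4. The large subunit genes took 2.88% ± 0.159 and 2.65% ± 0.180 (SD, n = 3 each), with log2 ratios of -0.28, -0.03 and -0.06 in the same order. RPSA, which binds the small subunit and is also known as the laminin receptor precursor, took the most counts of any member, 0.314% on average. RPL3, which reaches towards the peptidyl transferase centre, followed with 0.295%. RPLP0, the scaffold of the large subunit stalk, took 0.172%, RPS2, at the mRNA entry channel, 0.166%, and RPL32 0.154%. These shares depend on transcript length, which the files do not give, and are therefore not a ranking of expression between genes.

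Gene by gene, 0 of the 55 members passed the test for RA in either direction, where 1.07% of the 5041 genes tested did (edgeR quasi-likelihood test with the pair as a block, Benjamini-Hochberg adjusted p under 0.05). Without adjustment, 15 of 55 had a p under 0.05, all of them lower with RA, where 3.15% of genes tested were lower at that level. In the other direction there were 0 of 55, where 5.73% of genes tested were higher. The limma-voom and DESeq2 tests also gave 0 adjusted calls, with 15 and 16 members at an unadjusted p under 0.05. This count was 1 without pair 1, 7 without pair 4, 8 under upper-quartile scaling and 0 in the fit without the pair as a block. The share of all genes at an unadjusted p under 0.05 was taken for the main edgeR fit only.

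The fitted log2 fold change was below 0 in 54 of 55 members, where 51.9% of genes tested were below 0. The median was -0.12, beside -0.01 over all genes tested. Over the 54 members averaging 50 counts or more, called abundant here, fold changes ran from -0.20 to -0.02, with standard errors from 0.06 to 0.11. The lowest adjusted p among them was 0.289 (edgeR quasi-likelihood). Members are not independent of each other, since a library with a low ribosomal share is low in nearly all of them. Without pair 1 the median was -0.03 and 40 of 55 members were below 0, a fit for which the share over all genes was not taken.

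Within a pair, the members moved as a narrow block. In pair 1 all 55 were lower with RA, where 49.7% of genes tested were. The middle 50% of the 54 abundant members lay between -0.36 and -0.29, around a median of -0.33, while the same range over all genes tested was -0.16 to 0.19. In pair 3 the median of these members was -0.002 with a range of -0.02 to 0.02, and 31 of 55 were lower, where 50.5% of genes tested were. In pair 4 the median was -0.07 with a range of -0.11 to -0.01, and 43 of 55 were lower, where 49.6% of genes tested were. The middle of the member distribution was narrower than that of all genes in each pair, and its position differed from pair to pair. The genes tested include ones with far fewer counts, whose ratios carry more counting noise. No such range was taken over genes of like abundance, so the width is not compared with theirs.

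**Figure D2:**
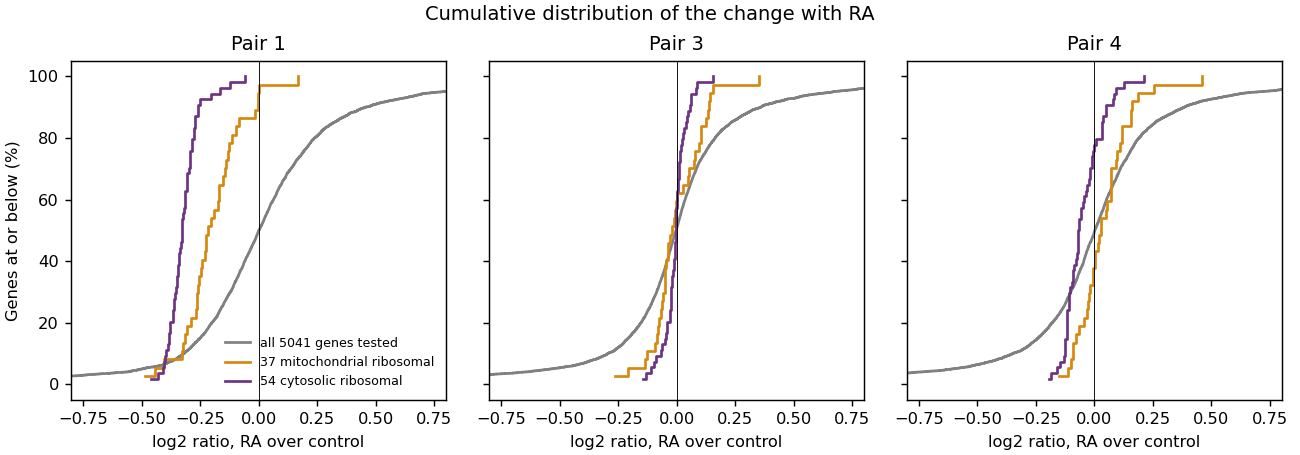
Cumulative distribution of the log2 ratio of RA to control in each pair for all 5041 genes tested, for 37 mitochondrial ribosomal protein genes and for the 54 abundant cytosolic ribosomal protein genes. The cytosolic curve is steep in every pair, centred at -0.33 in pair 1, at -0.002 in pair 3 and at -0.07 in pair 4.

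The 2 libraries of pair 1 set the ends of the range. The control library of pair 1 was the highest of the 6 libraries for 41 of 55 members, and the RA library of pair 1 was the lowest for 43. The same counts were not taken over all genes tested, so these are not compared with a background. The median member stood at 762 CPM in the control library of pair 1 and at 614 CPM in its RA library. It stood at 727 and 723 CPM in pair 3 and at 660.0 and 652 CPM in pair 4. The number of sorted cells also differed most in pair 1, with 57000 cells for the control library, the fewest of any, and 98000 for the RA library. The other libraries came from 161000 to 200000 cells. RNA per cell was 0.926 and 1.09 pg in pair 1, 1.08 and 0.916 pg in pair 3, and 0.869 and 0.660 pg in pair 4, control first. The part of cell number or RNA yield in the ribosomal share was not tested.

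In all, 21 of 55 members were lower with RA in each of the 3 pairs, where 14.3% of genes tested were, and 0 were higher in each, where 15.7% were. These 21 were 5 of the 19 small subunit and 16 of the 36 large subunit genes. Since pair 3 lay close to 0, this count moved with the scaling of the libraries, to 12 under upper-quartile scaling and 32 with library size only. Just 4 members had control and RA libraries that did not overlap, RPL13, RPL15, RPL19 and RPLP1, each lower with RA, where 3.05% of genes tested were. In the other direction 0 members stood apart, where 4.42% of genes tested did.

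**Figure D3:**
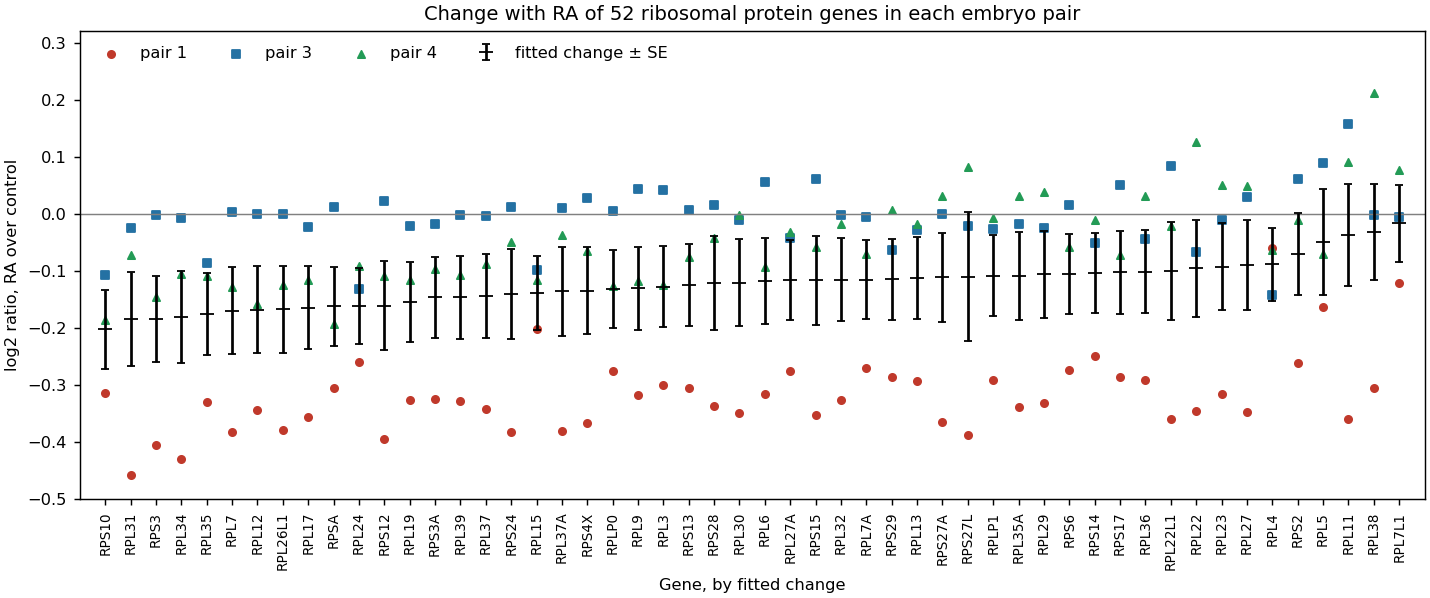
The log2 ratio of RA to control of 52 of the 54 abundant ribosomal protein genes in pairs 1, 3 and 4 (coloured symbols), with the fitted change ± SE in black, ordered by the fitted change. Pair 1 lies lowest for every gene drawn except RPL4, at -0.06 in pair 1 and -0.14 in pair 3.

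RPS10, a protein of the small subunit head, had the lowest p of all members. Its control libraries measured 479, 505 and 465 CPM in pairs 1, 3 and 4, and its RA libraries 385, 469 and 409 CPM. Each RA library was below its own control, although the RA library of pair 3 was above the control library of pair 4. The log2 fold change was -0.20 ± 0.07 (SE), with a 95% interval from -0.35 to -0.06, and the edgeR quasi-likelihood adjusted p was 0.289.

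RPL15, a core protein of the large subunit, was the most even of the members whose groups stood apart. It measured 762, 774 and 752 CPM in the control libraries and 662, 723 and 693 CPM with RA. All 3 RA libraries were below all 3 control libraries. Its log2 ratios were -0.20, -0.10 and -0.12 in pairs 1, 3 and 4, and its log2 fold change was -0.14 ± 0.06 (SE, edgeR quasi-likelihood adjusted p = 0.558).

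RPL19, whose long helix reaches across to the small subunit, measured 1529, 1419 and 1407 CPM in the control libraries and 1219.5, 1398 and 1298 CPM with RA. The gap between the groups was small beside the difference within pair 1, and the log2 fold change was -0.16 ± 0.07 (SE, edgeR quasi-likelihood adjusted p = 0.550). RPLP1, one of the acidic stalk proteins that recruit translation factors, measured 1082, 1095 and 1081 CPM in the control libraries and 884, 1075 and 1075 CPM with RA. Only pair 1 showed more than a slight difference for RPLP1, whose log2 ratios were -0.29, -0.03 and -0.01. RPLP0 measured 1811, 1727 and 1856 CPM in the control libraries and 1497, 1733 and 1700.2 CPM with RA, so its groups overlapped.

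At the peptide exit tunnel, RPL31, which sits at its rim, had the largest difference of any abundant member in pair 1, a log2 ratio of -0.46. It measured 605, 553 and 501 CPM in the control libraries and 440.4, 544 and 477 CPM with RA. In pairs 3 and 4 its log2 ratios were -0.02 and -0.07. RPL35, also at the tunnel rim, measured 437, 448 and 406 CPM in the control libraries and 348, 422 and 376 CPM with RA, and was lower in all 3 pairs. RPL26L1, which the RefSeq annotation of GRCg7b also lists under the name RPL26, measured 731, 699.5 and 634 CPM and then 562, 699.7 and 582 CPM with RA. In pair 3 its libraries were level.

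On the small subunit, RPS3, at the mRNA entry channel, measured 1397, 1251 and 1232 CPM in the control libraries and 1055, 1250.3 and 1113 CPM with RA. Its log2 ratio was -0.40 in pair 1 and -0.15 in pair 4, and its libraries of pair 3 were level. RPSA measured 3195, 3279 and 3466 CPM in the control libraries and 2584, 3305 and 3033 CPM with RA, higher by a trace in pair 3 and lower in the others. The log2 fold changes of RPL7, RPL12, RPL17, RPL24 and RPL34, also among the members at an unadjusted p under 0.05, lay between -0.16 and -0.18.

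At the other end, 4 members had fitted changes within 0.05 of 0. RPL5 and RPL11 form a particle with the 5S ribosomal RNA, and in human and mouse cells they bind the p53 regulator MDM2 when ribosome assembly fails. RPL11 measured 429, 371 and 324 CPM in the control libraries and 334, 414 and 345 CPM with RA. It was therefore lower in pair 1 and higher in pairs 3 and 4, and its fold change of -0.04 ± 0.09 (SE, edgeR quasi-likelihood adjusted p = 0.949) had a 95% interval from -0.23 to 0.15. RPL5 measured 93.0, 95.6 and 84.6 CPM in the control libraries and 83.0, 102 and 80.5 CPM with RA, higher with RA in pair 3 and lower in pairs 1 and 4.

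RPL38, which in mouse is needed for the translation of a subset of Hox mRNAs, measured 696, 650.1 and 554 CPM in the control libraries and 563, 649 and 642 CPM with RA. It was lower in pair 1, level in pair 3 and, at a log2 ratio of 0.21, higher in pair 4 than any other abundant member. RPL7L1, a paralog of RPL7, measured 762, 752 and 605 CPM in the control libraries and 700.4, 749.5 and 638 CPM with RA. In pair 1 its log2 ratio was -0.12 against a median member of -0.33. The 95% intervals of these 2 genes, from -0.21 to 0.15 for RPL38 and from -0.16 to 0.13 for RPL7L1, still include the median change of all members.

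Members with a paralog in the table were compared within libraries, which removes transcript length as long as the same gene pair is followed. RPL22L1 counts were 70.5%, 77.6% and 84.4% of RPL22 counts in the control libraries of pairs 1, 3 and 4, and 69.7%, 86.1% and 76.2% with RA. The ratio was level in pair 1, higher with RA in pair 3 and lower in pair 4, with no common direction. In mouse, Rpl22l1 is known to rise when Rpl22 is lost. RPL7L1 counts were 83.6%, 86.0% and 72.8% of RPL7 counts in the control libraries and 100.2%, 85.5% and 83.9% with RA. This ratio was higher with RA in pairs 1 and 4 and level in pair 3.

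RPL3L, in mammals a paralog of RPL3 used in muscle, was barely detected, with 30, 0 and 14 counts in the control libraries and 16, 10 and 9 with RA. It was the only member with a mean count under 50 and the only one with a fitted change above 0, and its standard error of 0.93 on the log2 scale leaves its direction unknown. RPS27L, in human cells a p53 target, measured 73.7, 58.4 and 59.2 CPM in the control libraries and 56.3, 57.5 and 62.7 CPM with RA. It was lower in pair 1, level in pair 3 and higher in pair 4. RPS4X, one of the more abundant members, had a log2 fold change of -0.13 ± 0.08 (SE, edgeR quasi-likelihood adjusted p = 0.653). RPS28 was at 218 ± 8.97 CPM in the control and 201 ± 22.9 CPM with RA (SD, n = 3 each). Where ribosomal protein genes have near-identical copies elsewhere in the genome, reads may be split or lost in counting, so the absolute levels are uncertain.

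The same model also compared the embryo pairs with each other regardless of RA. Its F test for the pair called 3 of 55 members, RPL4, RPS6 and RPL17, where 13.6% of genes tested were called (edgeR quasi-likelihood adjusted p under 0.05). In this fit the share of members called was below that over all genes tested. All 3 remained without pair 4, where 389 genes were called in all, and RPL4 alone without pair 3, where 520 were. Without pair 1, 10 of 55 members were called, these 3 among them, beside 499 genes in all. Without pair 1, more members were called than in the main fit, while fewer genes were called in all, 499 beside 685. The share over all genes was not taken for the fits without a pair. Whether the low share of members in the main fit holds in those fits is therefore not known.

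RPL4, which with RPL17 forms the narrowest part of the exit tunnel, had a level of its own in each pair. It measured 780.0 CPM in the control and 748 CPM in the RA library of pair 1, 999.98 and 906 CPM in pair 3, and 1209 and 1156 CPM in pair 4. Each pair was clear of the next in both groups, and the F test of the pair gave an adjusted p of 0.000415 (edgeR quasi-likelihood). Its difference with RA was small in each pair, between -0.06 and -0.14 on the log2 scale.

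RPS6, the ribosomal protein that S6 kinases phosphorylate downstream of growth signals, was highest in pair 3. It measured 817 and 676 CPM in pair 1, 1108 and 1119.7 CPM in pair 3, and 854 and 819.9 CPM in pair 4, control first (pair F test, edgeR quasi-likelihood adjusted p = 0.00105). RPL17 had the same order, with 796 and 622 CPM in pair 1, 988 and 973 CPM in pair 3, and 841 and 776 CPM in pair 4 (adjusted p = 0.00715 in the same test). Both RPS6 and RPL17 lie on the Z sex chromosome in chick, as does RPL37. RPL37 did not share the pattern, at 663 and 523 CPM in pair 1, 586 and 585 CPM in pair 3, and 565 and 532 CPM in pair 4 (adjusted p = 0.629). The part of embryo sex in these differences was not tested. RPL7L1 (adjusted p = 0.0643) and RPL23 (adjusted p = 0.0782), which lies on the face between the subunits, came next in the edgeR pair test. Both were lowest in pair 4.

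**Figure D4:**
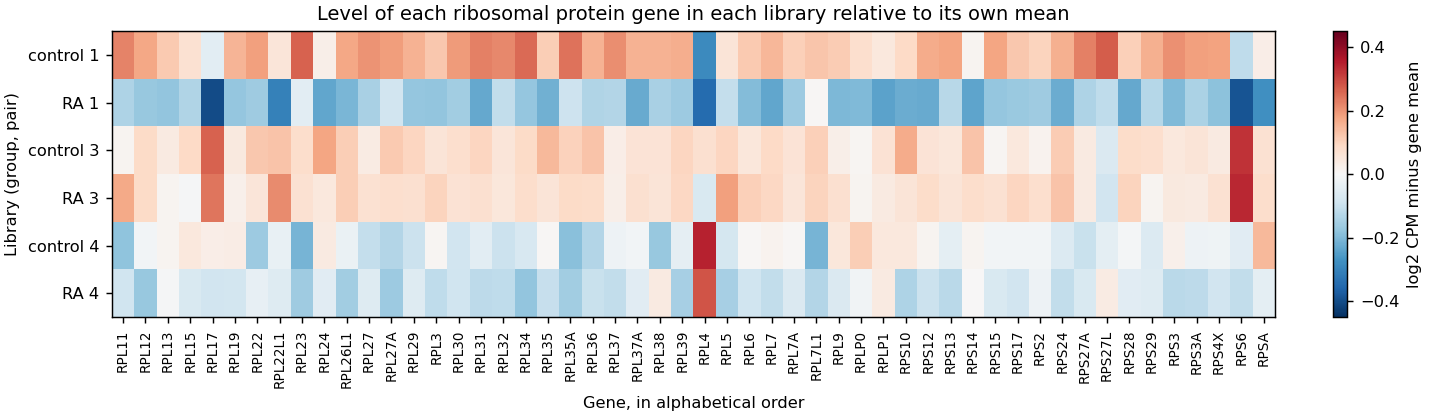
Level of 52 of the 54 abundant ribosomal protein genes in each library as log2 CPM minus the mean of the gene over the 6 libraries, with red for higher and blue for lower. The control library of pair 1 is red and its RA library blue for most genes, while RPL4, RPS6 and RPL17 differ by pair.

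Other genes of translation and ribosome making were read from the same fit, and 0 of them passed the test for RA. Outside the naming rule for members, RACK1, a scaffold protein on the small subunit, was at 815, 803 and 869 CPM in the control libraries and 685, 807 and 779 CPM with RA. It was lower with RA in pairs 1 and 4 and level in pair 3.

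Among the elongation factor list, 0 of 6 genes passed, and the medians were -0.18 in pair 1, 0.03 in pair 3 and -0.07 in pair 4. EEF1A1, which brings aminoacyl-tRNA to the ribosome, was at 3250.4, 3157 and 2935 CPM in the control libraries and 2557, 3169 and 2798 CPM with RA. Its log2 ratios were -0.35, 0.01 and -0.07, beside -0.33, -0.002 and -0.07 for the median abundant ribosomal protein gene, but EEF1A1 was singled out with its values known. The rest of the list did not share one pattern. TPT1, whose mRNA also begins with a pyrimidine tract, had log2 ratios of -0.35, -0.05 and -0.11. EEF2, which moves the ribosome along the mRNA, had -0.19, 0.14 and -0.05, and EIF5A2 had -0.18, 0.05 and -0.13. GSPT1, which releases the finished chain at stop codons, had -0.07, -0.01 and -0.07. With GSPT1 and TPT1 in it, the list median is not one of elongation factors alone. EEF1A2, a low-level paralog of EEF1A1, was higher with RA in each pair, at 0.07, 0.15 and 0.38. Its fitted change was 0.20 ± 0.27 (SE, edgeR quasi-likelihood adjusted p = 0.887).

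The initiation factor list had 0 of 25 genes passing, with a median of -0.11 in pair 1, -0.02 in pair 3 and -0.07 in pair 4. It also holds EIF4EBP2, PAIP2 and ABCE1, so its medians are not ones of initiation factors alone. In this list 23 of 25 fitted changes were below 0, where 51.9% of genes tested were. With RA, 10 of 25 genes were lower in each of the 3 pairs, which is 40.0%. The same share was 38.2% of the ribosomal protein genes and 14.3% of genes tested. The overall median was -0.05. The mitochondrial ribosomal protein list, 37 genes that serve the separate ribosome of mitochondria, had 0 passing and medians of -0.22, -0.02 and 0.03 in pairs 1, 3 and 4. In the mitochondrial list 28 of 37 fitted changes were below 0, where 51.9% of genes tested were, 8 of 37 genes were lower in each pair, and the overall median was -0.06. Outside the members, the 3232 genes averaging 1000 counts or more had a median of -0.01 in pair 1, -0.01 in pair 3 and 0.001 in pair 4.

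The lists upstream of the ribosome did not share the low values of pair 1 to the same extent. Ribosome biogenesis genes had 0 of 47 passing, a median log2 fold change of 0.02 and medians of -0.06, 0.02 and 0.04 in pairs 1, 3 and 4. RRP12, which helps export ribosome precursors from the nucleus, had log2 ratios of 0.23, 0.31 and 0.16. EFL1, which releases a factor that keeps the subunits apart, had 0.22, 0.21 and 0.26, and WDR36 had 0.21, 0.19 and 0.08. HEATR3, which imports RPL5, went the other way, at -0.27, -0.26 and -0.05. Of these, the lowest adjusted p was 0.346 for RRP12 (edgeR quasi-likelihood).

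A mixed list of RNA polymerase I genes and regulators had 0 of 14 genes passing and a median log2 fold change of 0.002. It also holds MYC, LARP4, MDM2 and kinases such as AKT1, so its median is not one of RNA polymerase I genes alone. MYC, a transcription factor that drives ribosomal genes, was at 329, 377 and 329 CPM in the control libraries and 417, 439.7 and 378 CPM with RA. All 3 RA libraries were above all 3 control libraries, and the log2 fold change was 0.26 ± 0.07 (SE, edgeR quasi-likelihood adjusted p = 0.121). LARP4 had log2 ratios of 0.38, 0.07 and 0.13. Nascent chain factors, which receive proteins as they leave the ribosome, had 0 of 15 passing and a median log2 fold change of 0.01, with SRPRB at 0.16, 0.12 and 0.14.

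**Figure D5:**
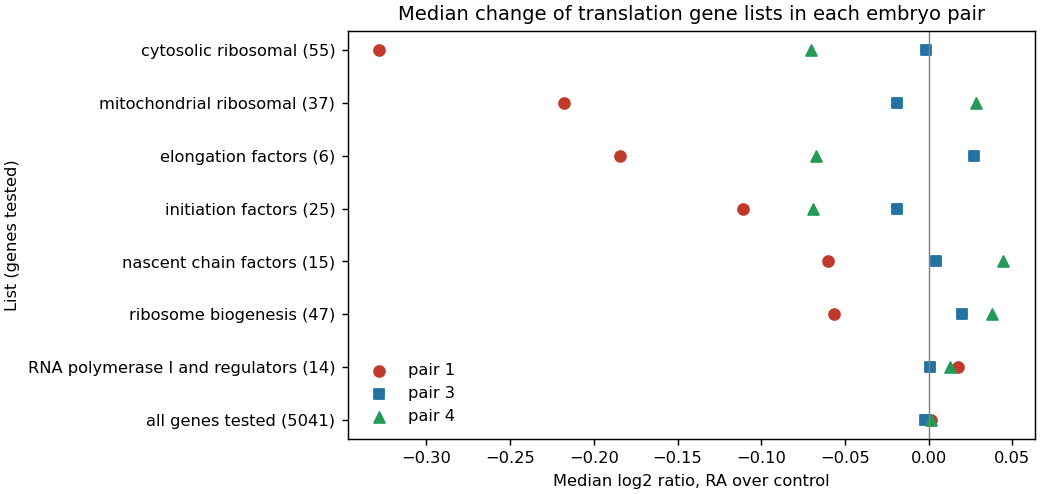
Median log2 ratio of RA to control in pairs 1, 3 and 4 for each list of translation genes and for all genes tested, with the number of genes tested in brackets. The cytosolic ribosomal list is lowest in pair 1, at -0.33, followed by the mitochondrial ribosomal list at -0.22 and the elongation factor list at -0.18. The elongation factor list also holds GSPT1 and TPT1.

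The authors' deposited table, which rests on the same libraries, lists 54 of the members. In the authors' deposited table all 54 have a log2 fold change below 0, with a median of -0.12. None has an adjusted p under 0.05 in the authors' deposited table, where 12 of 4752 genes do. Just 1 of the 54 has an unadjusted p under 0.05. That member is RPS10, at a log2 fold change of -0.20 with p = 0.0426 in the authors' deposited table. The shares of all its genes below 0 and at an unadjusted p under 0.05 were not taken. The counts of members at these levels are therefore not compared with a background.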

How the data were processed

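RNA was sequenced as 100-base single reads from amplified cDNA, per the labels' protocols. The authors deposited raw counts per gene symbol. STAR 2.5.3a, HTSeq 0.6p1, edgeR 3.18.1 and galGal5 are named in the submitters' processing notes, with no role stated. The deposited CPM table equals the counts divided by 1 factor per library, to within a relative 1.26e-09. The authors' deposited table gives log2 fold changes, p-values and adjusted p-values of a paired comparison.

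From the counts, edgeR 4.0.16 (R 4.3.3) was run with filterByExpr (minimum count 10, total 15), TMM, the pair as a block, glmQLFit and glmQLFTest, with Benjamini-Hochberg adjustment over 5041 genes. Standard errors were derived from the fold change and its F statistic. CPM values use TMM-scaled library sizes, and log2 ratios within pairs add a prior count of 2. The fit was also run on simulated counts, with pair effects drawn for each gene on its own. Genes moving together within a pair were not simulated. DESeq2 1.42.0 and limma 3.58.1 were alternatives.

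The pairing comes from the shared embryos, and deviations from group means correlated by 0.29, 0.25 and 0.34 within pairs 1, 3 and 4. Libraries of a group differed by more than sampling noise (smallest chi-square per degree of freedom 49.2). Total counts were 19808063 to 27235633 per library.

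The members and lists were chosen with earlier results of these data known. Named members are those at an unadjusted p under 0.05, the 5 at each end of fold change and of share, stalk proteins, RPSA, paralogs with their partners, and the 5 with the lowest pair p. Of other lists, up to 5 genes at an unadjusted p under 0.05 were eligible. RPL13, RPL37, RACK1, EEF1A1, EEF2 and the rest of the elongation factor list were picked outside this rule with their values known. RefSeq of GRCg7b has 52 of the 55 symbols as symbols and 3 as synonyms, and no coordinates are given. Values of a few single genes, among them some that meet the rule for named members, are not reported here and are left out of the plots by gene.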

Additional observations from a re-analysis of the deposited data

How the results depend on the processing

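Across the scalings, filters, tools, the fit without the block and the fits without a pair, 0 ribosomal protein genes were called for RA, and 0 of the 395 values of named members under an alternative passed the threshold. The median log2 fold change of the members stayed negative, from -0.122 to -0.113 over the scalings, and from -0.191 to -0.0302 across the fits that left out 1 pair. The mean log2 ratio of the summed share was -0.129 and changed little with the denominator, while leaving out a pair gave -0.183 to -0.0481. The count of members at an unadjusted p under 0.05, 15, was 8 with upper-quartile scaling and 0 without the replicate block, and leaving out a pair gave 1 to 19. Members lower in all pairs, 21, became 32 with library size only and 12 with upper-quartile scaling, and 20 to 43 when 1 pair was left out and a member had to be lower in the other pairs only; without pair 1, 3 members were higher in both pairs left. For the counts at an unadjusted p, lower in all pairs and called for the pair, the share over all genes was taken in the main fit only. The 14.3% of genes lower in all pairs refers to 3 pairs and is no background for a count over fewer pairs. Members called for the pair, 3, became 5 with no filter, and leaving out a pair gave 1 to 10.

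Over all genes, the 54 calls for RA became 7 in the fit without the replicate block (7 higher, 0 lower), 85 with no filter and 85 with the DESeq2 Wald test, where 73 were higher and 12 lower; leaving out a pair gave 36 to 81, with 31 to 57 higher and 2 to 24 lower. The 6 genes called lower became 15 with no filter, 3 with median-of-ratios factors and 3 with TMM computed without the members. The 685 genes called for the pair became 389 to 520 when a pair was left out. Leaving out a pair also lowers the residual degrees of freedom.

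Without pair 1 the fitted change reversed for 9 named members. Across the fits that left out 1 pair it ran from -0.135 to 0.122 for RPL11, -0.146 to 0.104 for RPL38, -0.198 to 0.0282 for RPL22, -0.191 to 0.0289 for RPL22L1 and -0.0561 to 0.0345 for RPL7L1. It ran from -0.199 to 0.0294 for RPS27L, -0.156 to 0.0177 for RPL23, -0.136 to 0.0231 for RPS2 and -0.118 to 0.0075 for RPL5. RPL3L ran from -0.82, without pair 3, to 1.16 and was at -0.29 without the replicate block. The cause was not tested. Depth limits RPL3L alone among the members.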

Other observations

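Relative to the median ribosomal protein gene of the same pair, 4 of the 54 abundant members were above it in all 3 pairs and 7 were below it in all 3. The median was taken from these same members, so some can be expected on the same side in every pair without any trait of their own. The counts are therefore not read as a result about these members. Some cleared the median only by a trace, such as RPL32, above by 0.001 in pair 1 and 0.0004 in pair 3. RPS2 was above by 0.07, 0.06 and 0.06 on the log2 scale in pairs 1, 3 and 4, the most even of the 4. RPL38 was above by 0.28 in pair 4 and by 0.02 or less in the others. Among the 7 below, RPL31 and RPL34 were lower than the median member by -0.13 and -0.10 in pair 1, and RPL35 by -0.08 in pair 3. RPS10, with the lowest p for RA of any member, was at the median in pair 1 (0.01) and below it by -0.11 and -0.12 in pairs 3 and 4. RPL4 was above the median member by 0.27 in pair 1 and below it by -0.14 in pair 3. These differences were not tested.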
